A study of Saccharomyces cerevisiae with 9 samples.

Results

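Yeast removes hydrogen peroxide, organic peroxides and superoxide with a small set of enzymes, and 10 of their genes were followed here across 4 histone H3 genotypes: the peroxiredoxin genes PRX1, TSA1, TSA2, AHP1 and DOT5, the catalase genes CTT1 and CTA1, the cytochrome c peroxidase gene CCP1 and the superoxide dismutase genes SOD1 and SOD2. They were chosen by name, as the genes of these enzyme families, out of 5449 Saccharomyces cerevisiae genes with a probe set on the array. Each of the 10 had a single probe set, and each read above the 95th percentile of the background on 9 of 9 arrays.

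The series measured total RNA of strain JPY12 on 1-colour Affymetrix arrays, 1 array per culture. Every strain, wild type included, expressed histone H3 from the plasmid pEMH7. Residue 42 of that H3 was the normal lysine in the wild type (3 arrays) or had been changed to alanine (K42A, 2 arrays), leucine (K42L, 2 arrays) or glutamine (K42Q, 2 arrays). Cultures were separate biological replicates grown without added stress in rich YPD medium to log phase, at an A600 of about 0.7. Whether the chromosomal H3 genes were removed is not given in the sources used here, and no probe set reads the substitution, so the labels could not be checked against the data. The question, as the title puts the site forward, is what a changed residue 42 does to transcript levels.

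Superoxide dismutases turn superoxide into oxygen and hydrogen peroxide. Catalases split hydrogen peroxide into water and oxygen, cytochrome c peroxidase reduces it with electrons from cytochrome c, and peroxiredoxins reduce it, or organic peroxides, at a reactive cysteine that thioredoxin or glutathione then restores. In yeast growing by fermentation on glucose much of this defence is cytosolic and constitutive. Other members, among them the cytosolic catalase gene, are classic targets of the general stress response and rise as glucose runs out.

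The deposited values were signals on a linear scale that the authors had already scaled, to a trimmed mean of 150.1 on every array. Differences below are log2 differences between group means from 1 limma model over all 9 arrays, with their standard errors (SE), and a gene was called at an adjusted p (Benjamini-Hochberg over all genes tested) under 0.05. Genes under the 25th percentile of mean signal, a signal of 87.0, were left out, which kept 4087 genes and 8 of the 10 members. TSA2 lay just inside that limit, with a geometric mean signal of 90.6 that it reached through its high values in K42A and K42Q, and CTT1 (65.9) and CTA1 (23.9) lay under it. The values of CTT1 and CTA1 therefore come from the same model fitted to all 5449 genes. An array reads the RNA of a whole culture at a fixed total signal, so a higher level in each cell and a larger share of cells with the transcript cannot be told apart.

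The arrays fell into 2 classes by their background, read from probe sets of another yeast species, and the labels name no such batch. Wild-type replicate 1 and all K42L and K42Q arrays had a median background of 1.0 to 1.3, and wild-type replicates 2 and 3 and both K42A arrays had 2.2 to 2.7. The mean signal of the spike-in controls was 710 to 816 in the first class and 432 to 515 in the second. The low-background and high-background wild-type arrays also differed in some members, so each difference was fitted again with the class as a block. With the block, K42A is set against wild-type replicates 2 and 3, and K42L and K42Q are set against wild-type replicate 1 alone. That lone array is then assumed to vary like the other groups, so the adjusted p of K42L and K42Q in the block borrows their spread.

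**Figure D1:**
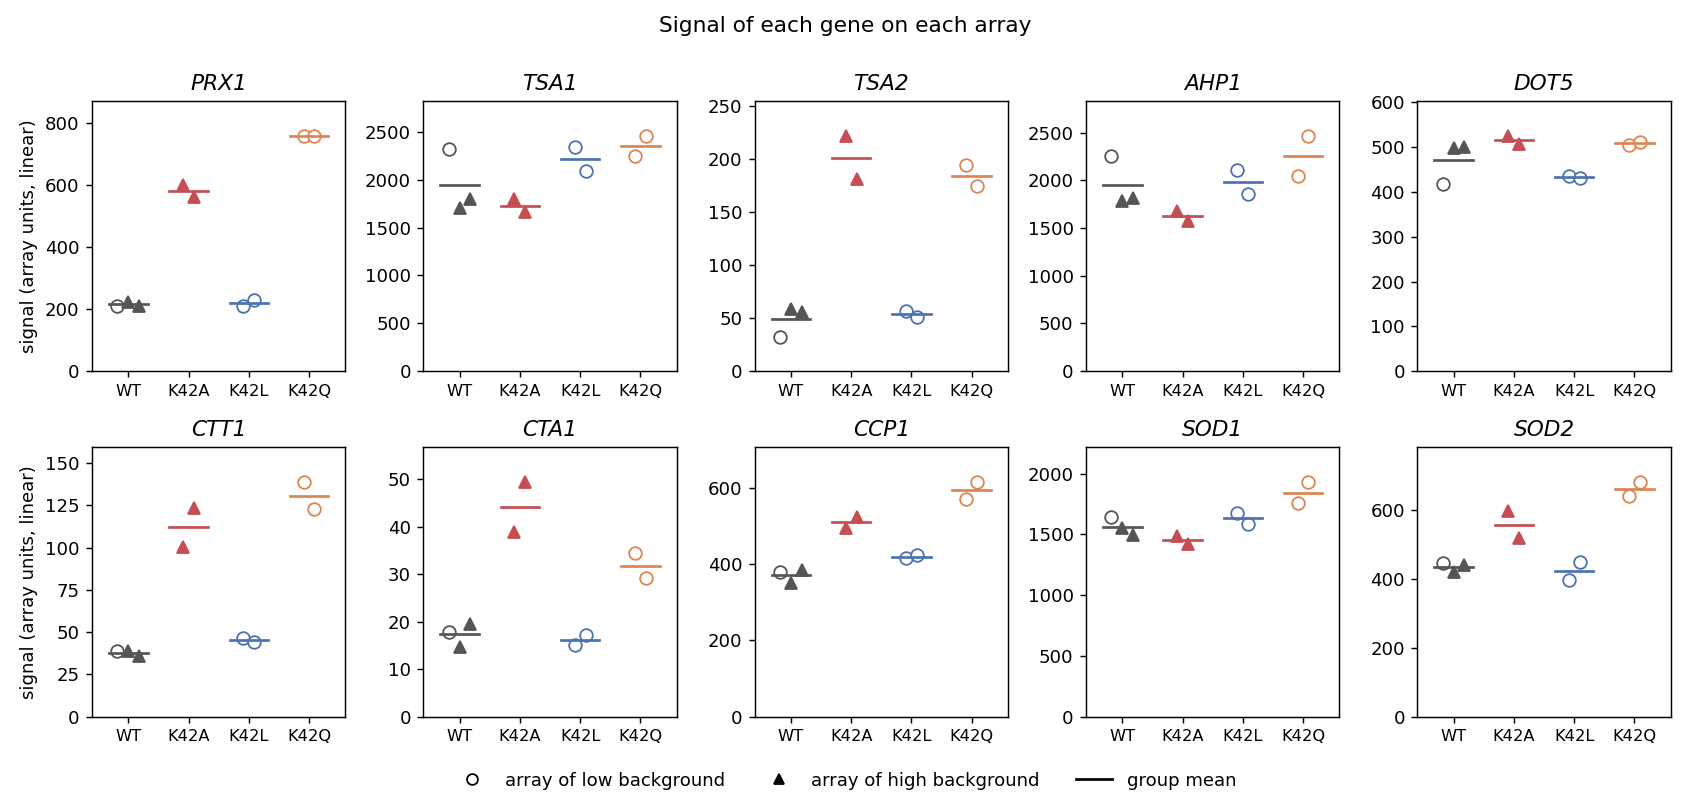
Signal of each of the 10 genes on each of the 9 arrays, on a linear scale that starts at 0, by genotype (WT, wild type). Open circles are arrays of low background, filled triangles arrays of high background and lines group means. PRX1, TSA2, CTT1, CTA1, CCP1 and SOD2 are higher on all K42A and K42Q arrays than on all wild-type and K42L arrays. DOT5 is too, by little, and TSA1, AHP1 and SOD1 are not.

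PRX1 (YBL064C), which encodes the mitochondrial peroxiredoxin, gave the smallest adjusted p of the members in both K42A and K42Q. Its signal was 210.4, 223.2 and 210.3 on the wild-type arrays, 211.3 and 230.2 in K42L, and 755.9 and 756.3 in K42Q. In K42A the mean was 580 ± 28.8 (SD, n = 2), with the lower array at 559.3. The K42L arrays lay within or just above the wild-type range, and every K42A and K42Q array lay at more than 2 times the highest of them. PRX1 rose by 1.43 ± 0.07 on the log2 scale in K42A, 2.7-fold (adjusted p = 4.96e-06), and by 1.82 ± 0.07 in K42Q, 3.52-fold (adjusted p = 5.53e-07). In K42L the difference was 0.04 ± 0.07, with a 95% interval of -0.12 to 0.19. With the background class as a block the differences were 1.42 in K42A, 0.07 in K42L and 1.85 in K42Q.

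TSA2 (YDR453C), the inducible paralogue of the main cytosolic peroxiredoxin gene TSA1, had a signal of 31.9, 58.5 and 56.0 in wild type and of 56.9 and 51.1 in K42L. In K42A it was 221.2 and 181.1, and in K42Q 193.9 and 174.5. The K42A and K42Q arrays overlapped each other and stood apart from all others. TSA2 rose 4.25-fold in K42A (2.09 ± 0.23, adjusted p = 0.000173) and 3.91-fold in K42Q (1.97 ± 0.23, adjusted p = 0.000252). The lowest of all 9 values was that of wild-type replicate 1, the single wild-type array of low background. Against that array alone, as the block has it, TSA2 was 2.53 higher in K42Q and 0.76 ± 0.14 higher in K42L (adjusted p = 0.0441, with 1 wild-type array and the spread of the other groups), and K42A stood 1.81 above the other wild-type arrays. In K42L the difference without the block was 0.20 ± 0.23 and was not called (adjusted p = 0.682).

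TSA1 (YML028W), the abundant cytosolic peroxiredoxin that also serves as a chaperone, showed no such pattern. Its signal was 2326.2, 1708.1 and 1804.9 in wild type, 1795.4 and 1667.8 in K42A, 2345.6 and 2095.1 in K42L, and 2247.4 and 2455.5 in K42Q. Every mutant overlapped the wild-type arrays, and all 5 arrays of low background lay above all 4 of high background. No mutant was called against wild type: the difference was -0.16 ± 0.13 in K42A, 0.20 ± 0.13 in K42L and 0.28 ± 0.13 in K42Q. With the block they were -0.02, -0.07 and 0.01. The sign in K42A turned under quantile scaling, to 0.15 (adjusted p = 0.0238), and K42Q was called higher under 3 of the 4 scalings tried (0.33 to 0.46) and without wild-type replicate 1 (0.42).

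AHP1 (YLR109W) encodes a cytosolic peroxiredoxin that prefers alkyl hydroperoxides. It read 2261.9, 1783.4 and 1815.4 in wild type, 1680.0 and 1571.4 in K42A, 2110.6 and 1856.2 in K42L, and 2042.7 and 2463.6 in K42Q. As for TSA1, the arrays split by background class, and the K42A arrays were the lowest of their class. The differences from wild type were -0.26 ± 0.13 in K42A (adjusted p = 0.126), 0.03 ± 0.13 in K42L and 0.21 ± 0.13 in K42Q (adjusted p = 0.221). With the block they were -0.15, -0.19 and -0.01, and none was called. Among the high-background arrays alone the K42A difference of -0.15 passed (adjusted p = 0.0305), and median centring took it to -0.43 (adjusted p = 0.0268), while quantile scaling and cyclic loess turned it to 0.03. AHP1 was called higher in K42Q after quantile scaling (0.24, adjusted p = 0.00251), after cyclic loess (0.33, adjusted p = 0.00211), with spike-in scaling (0.39, adjusted p = 0.0218) and without wild-type replicate 1 (0.32, adjusted p = 0.0131).

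DOT5 (YIL010W), the nuclear thiol peroxidase gene, had a narrow range over the series. It read 417.5, 498.8 and 499.4 in wild type, 524.2 and 506.2 in K42A, 435.2 and 430.1 in K42L, and 505.8 and 510.6 in K42Q. The K42A and K42Q arrays lay above the highest wild-type array by little, and wild-type replicate 1 lay near K42L. No difference from wild type was called: 0.13 ± 0.08 in K42A, -0.12 ± 0.08 in K42L and 0.11 ± 0.08 in K42Q. Against wild-type replicate 1 alone, as in the block, K42Q was 0.28 ± 0.07 higher (adjusted p = 0.00512, with the spread borrowed in the same way). Other scalings also moved DOT5 over the threshold. K42A was called higher after cyclic loess (0.21, adjusted p = 0.0429) and with spike-in scaling (0.31, adjusted p = 0.0313), and so was K42Q (0.23, adjusted p = 0.0277, and 0.29, adjusted p = 0.0418).

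The catalase genes both had weak signals. CTT1 (YGR088W), for the cytosolic catalase T, read 38.7, 38.8 and 35.7 in wild type, 100.2 and 123.7 in K42A, 46.7 and 44.3 in K42L, and 138.9 and 122.6 in K42Q. K42A and K42Q overlapped each other, and K42L lay between them and wild type without touching either. CTT1 rose 2.95-fold in K42A (1.56 ± 0.12, adjusted p = 1.54e-05) and 3.46-fold in K42Q (1.79 ± 0.12, adjusted p = 6.34e-06). The K42L difference of 0.27 ± 0.12 was not called (adjusted p = 0.278). With the block the differences in K42A, K42L and K42Q were 1.58, 0.23 and 1.75. Those of K42A and K42Q were smaller after cyclic loess (1.19 and 1.42) and quantile scaling (1.14 and 1.43), and all were called.

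CTA1 (YDR256C) encodes catalase A of peroxisomes and mitochondria and is repressed by glucose. It read 17.9, 14.6 and 19.5 in wild type, 38.9 and 49.5 in K42A, 15.1 and 17.3 in K42L, and 34.5 and 29.2 in K42Q. The arrays of K42A were the highest, those of K42Q came next, and K42L overlapped wild type. CTA1 rose 2.55-fold in K42A (1.35 ± 0.19, adjusted p = 0.000422) and 1.84-fold in K42Q (0.88 ± 0.19, adjusted p = 0.00459). The K42Q call depended on the scaling: the difference was 0.27 after cyclic loess (adjusted p = 0.239) and 0.03 after quantile scaling (adjusted p = 0.916). Without K42Q replicate 1 it was 0.76 (adjusted p = 0.055). In K42A the same 2 scalings gave 0.57 and 0.54, both called.

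Weak genes rose as a class in these mutants, which touches both catalase genes. It also touches TSA2, whose wild-type mean of 48.8 and K42L mean of 54.0 lay under the signal limit. Of the 1362 genes under the signal limit, 53.5% were called higher in K42A and 49.5% in K42Q, with median differences of 0.54 and 0.46. In K42L 0.808% of them were called higher, with a median of 0.05. The differences of CTT1, CTA1 and TSA2 in K42A and K42Q lay above those medians, and whether the rise of weak genes shares a source with them was not tested. Those of TSA2 were 1.83 and 1.70 after cyclic loess, and 1.74 and 1.67 after quantile scaling.

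CCP1 (YKR066C), for the haem peroxidase of the mitochondrial intermembrane space, read 380.0, 349.9 and 384.0 in wild type and 415.6 and 423.5 in K42L. It read 495.7 and 523.0 in K42A and 571.8 and 615.7 in K42Q. The 4 groups did not overlap at any point, in the order K42Q, K42A, K42L and wild type. CCP1 rose 1.37-fold in K42A (0.46 ± 0.07, adjusted p = 0.000903) and 1.6-fold in K42Q (0.68 ± 0.07, adjusted p = 0.000105). The K42L difference of 0.18 ± 0.07 was not called (adjusted p = 0.237), although it was without wild-type replicate 1 (0.19, adjusted p = 0.0419). The block left 0.47, 0.14 and 0.64 for K42A, K42L and K42Q, and median centring gave 0.29 in K42A.

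The 2 superoxide dismutase genes parted. SOD2 (YHR008C), for the manganese enzyme of the mitochondrial matrix, read 447.2, 420.1 and 441.0 in wild type, 597.8 and 518.1 in K42A, 396.0 and 450.0 in K42L, and 641.5 and 682.5 in K42Q. All K42A arrays lay above wild type and K42L, and both K42Q arrays lay above K42A. SOD2 rose 1.28-fold in K42A (0.35 ± 0.08, adjusted p = 0.00941) and 1.52-fold in K42Q (0.60 ± 0.08, adjusted p = 0.00063), and in K42L the difference was -0.05 ± 0.08. The K42A call was lost under median centring (0.18, adjusted p = 0.0958) and without K42A replicate 1 (0.25, adjusted p = 0.0832).

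SOD1 (YJR104C), for the copper and zinc enzyme of the cytosol, read 1642.3, 1553.4 and 1491.8 in wild type, 1483.8 and 1418.4 in K42A, 1678.2 and 1585.6 in K42L, and 1754.7 and 1931.7 in K42Q. The K42Q arrays were the highest and the K42A arrays the lowest, with K42L overlapping wild type. In K42Q it was called 1.18-fold higher (0.24 ± 0.08, adjusted p = 0.0387), a call that was lost with the block (0.16, adjusted p = 0.136), under median centring (0.12) and without any 1 of the arrays other than wild-type replicate 1. The differences of -0.11 ± 0.08 in K42A and 0.06 ± 0.08 in K42L were not called. In K42A the sign turned under quantile scaling and under cyclic loess, to 0.15 in both.

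Counted over all 10 members in the fit of all 5449 genes, 6 were called higher in K42A, 7 in K42Q and 0 in K42L, against 30.8%, 28.7% and 0.459% of genes called higher. None was called lower in K42A or K42Q, against 16.2% and 14.5% of genes. Among the 8 members that passed the signal limit, K42A had 4 called higher (PRX1, TSA2, SOD2 and CCP1) and 0 lower, where 22.6% of all 4087 genes were called higher and 19.7% lower. K42Q had 5 higher (the same 4 and SOD1) and 0 lower, against 21.4% and 18.2% of all genes. TSA2 passed the limit only through its K42A and K42Q arrays and had to differ, so these counts are a description alone. Leaving it out, 3 of 7 were called higher in K42A and 4 of 7 in K42Q. K42L had 0 of 8 called by limma, against 0.318% of all genes called higher and 0.343% lower. An unadjusted p under 0.05 was reached by 1 of the 8, CCP1, and by 722 of the 4087 genes tested. The count of 0 called in K42L rests on wild-type replicate 1. Without it the K42L arrays, all of low background, are set against high-background arrays alone, 3 members were called (TSA1 and CCP1 higher, DOT5 lower), and so were 16.9% of all genes higher and 16.5% lower. Genotype and background class cannot be told apart in that comparison. The median difference of the 8 members tested, TSA2 included, was 0.24 in K42A, 0.05 in K42L and 0.44 in K42Q, and that of all genes tested was -0.01, 0.01 and 0.00039. These comparisons share the wild-type arrays.

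**Figure D2:**
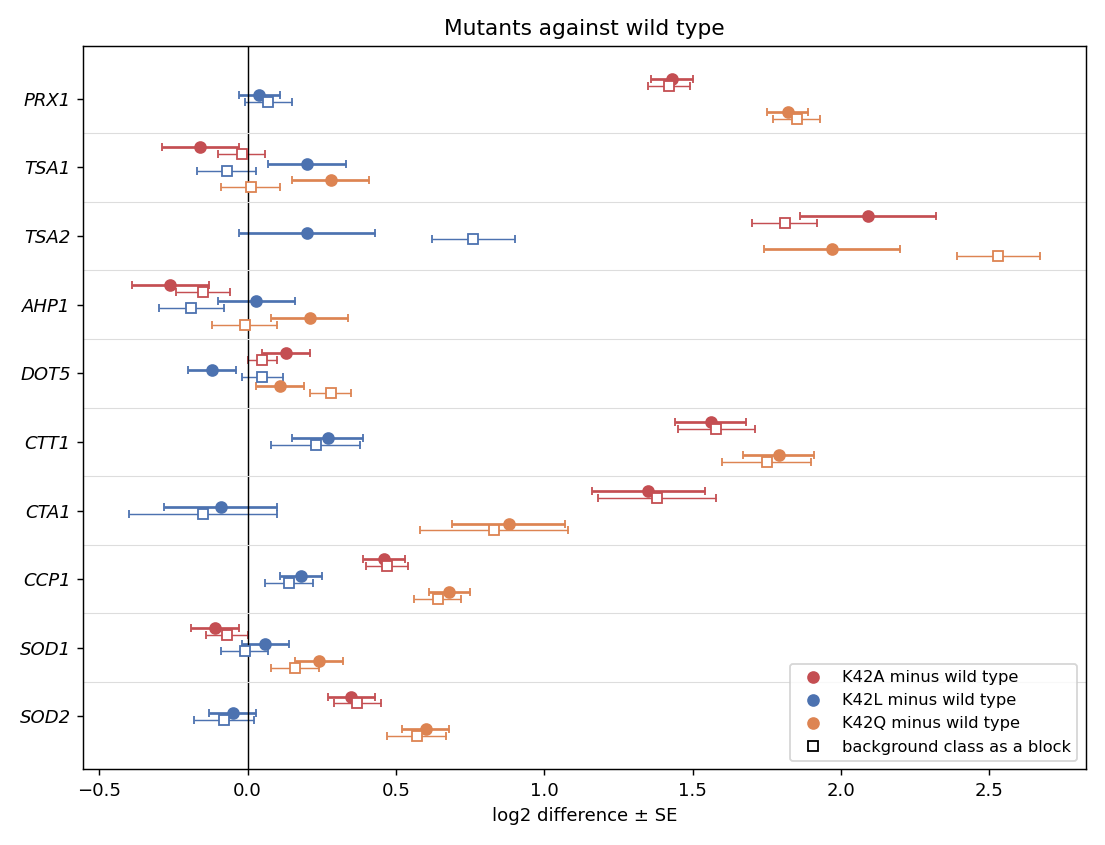
Log2 difference from wild type with its SE for each gene in K42A, K42L and K42Q. Circles are the fit without a block and open squares the fit with the background class as a block, where K42L and K42Q rest on 1 wild-type array. PRX1, TSA2 and CTT1 lie between 1.43 and 2.09 in K42A and K42Q, and the TSA2 squares lie apart from their circles.

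Grouped by location after their values were seen, the genes of the mitochondrial enzymes PRX1, SOD2 and CCP1 were all 3 called higher in both K42A and K42Q. Among the cytosolic and nuclear enzymes, TSA2 and CTT1 were called higher in both, SOD1 in K42Q alone, and TSA1, AHP1 and DOT5 in neither. CTA1, whose enzyme is placed in both peroxisomes and mitochondria, was called higher in both mutants and is in neither group. Of all 4087 genes tested, 22.6% were called higher in K42A and 21.4% in K42Q. In the fit of all genes, from which CTT1 and CTA1 come, these shares were 30.8% and 28.7%. The grouping is a description alone. TSA1, AHP1 and SOD1 belong to the brightest 10% of genes tested, those with a mean signal of at least 1068. That class of 409 genes had a median difference of -0.27 in K42A, with 6 called higher and 182 lower, and of -0.09 in K42Q, with 20 higher and 81 lower. In K42L its median was 0.06. The part that signal strength has in the difference between these 3 genes and the rest was not tested.

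The direct comparison of K42A with K42Q sets side by side the 2 mutants in which PRX1, TSA2, CTT1, CTA1, SOD2 and CCP1 were called higher. PRX1 was 0.38 ± 0.08 lower in K42A than in K42Q on the log2 scale (adjusted p = 0.0104; with the block the difference was -0.43, adjusted p = 0.0188). Leaving out K42A replicate 2, K42Q replicate 1 or K42Q replicate 2 raised its adjusted p to 0.0737, 0.0695 and 0.0793. AHP1 (-0.47 ± 0.14, adjusted p = 0.0465) and SOD1 (-0.34 ± 0.09, adjusted p = 0.0262) were also called lower in K42A, and neither with the block (-0.14 and -0.23). These were 3 of 8 members, where 8.15% of all genes were called lower and 9.96% higher.

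TSA2 did not differ by call without the block (0.12 ± 0.25, 95% interval -0.45 to 0.69). With it TSA2 was lower in K42A, at -0.72 ± 0.18 (adjusted p = 0.0177), a value that rests on the gap between the wild-type arrays of the 2 classes. The intervals of the remaining members that had risen in both mutants were -0.52 to 0.07 for CTT1, -0.39 to -0.05 for CCP1 (adjusted p = 0.0702) and -0.46 to -0.04 for SOD2 (adjusted p = 0.0871). Only CTA1 had its higher arrays in K42A (0.47 ± 0.21, adjusted p = 0.147) among the members whose 2 groups did not overlap. All K42A arrays are of high background and all K42Q arrays of low background, so this comparison has no value within a class.

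K42Q and K42L lie wholly in the low-background class, so their difference needs no wild-type array and the block leaves each difference as it is and changes its spread. PRX1 was 1.78 ± 0.08 higher in K42Q (adjusted p = 8.03e-07), TSA2 1.77 ± 0.25, CCP1 0.50 ± 0.08 and SOD2 0.65 ± 0.09, and these were 4 of 8 members against 16.7% of genes called higher and 14.8% lower. Without TSA2 they were 3 of 7. In the fit of all genes CTT1 (1.52 ± 0.13) and CTA1 (0.97 ± 0.21, adjusted p = 0.00591) were called too, 6 of 10 members against 23.0%. All 6 were also called in a fit of the low-background arrays alone. DOT5, at 0.23 ± 0.09, was not called (adjusted p = 0.0816), and it was called with the block (adjusted p = 0.00417) and among the low-background arrays alone (adjusted p = 0.00484). With the block 5 of 8 members were therefore called, against 24.7% of genes called higher. The CTA1 call was lost after cyclic loess (0.35), quantile scaling (0.08), and without K42L replicate 1 or K42Q replicate 1.

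K42A against K42L gave 5 of 8 members called higher and 0 lower, against 22.1% and 21.9% of genes (4 of 7 without TSA2), and 7 of 10 in the fit of all genes, against 29.1%. PRX1 (1.39 ± 0.08), TSA2 (1.89 ± 0.25), CTT1 (1.29 ± 0.13) and CTA1 (1.44 ± 0.21) had the largest differences. SOD2 and CCP1 were 0.40 ± 0.09 and 0.28 ± 0.08 higher. With the block the differences of TSA2, SOD2 and CCP1 were 1.05, 0.45 and 0.33, with an adjusted p of 0.0212 for SOD2 and 0.0318 for CCP1. Without the block the calls of SOD2 and CCP1 were lost under median centring (0.25 and 0.13) and without K42L replicate 1, that of SOD2 also without K42A replicate 1, and that of CCP1 also without K42A replicate 2 or K42L replicate 2. DOT5 was called at 0.25 ± 0.09 (adjusted p = 0.0498), which the block took to -0.0058. The DOT5 call was also lost under median centring (0.1) and with other variance models (adjusted p of 0.0631 and 0.0504). It was lost as well without any 1 of the arrays other than wild-type replicate 1.

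**Figure D3:**
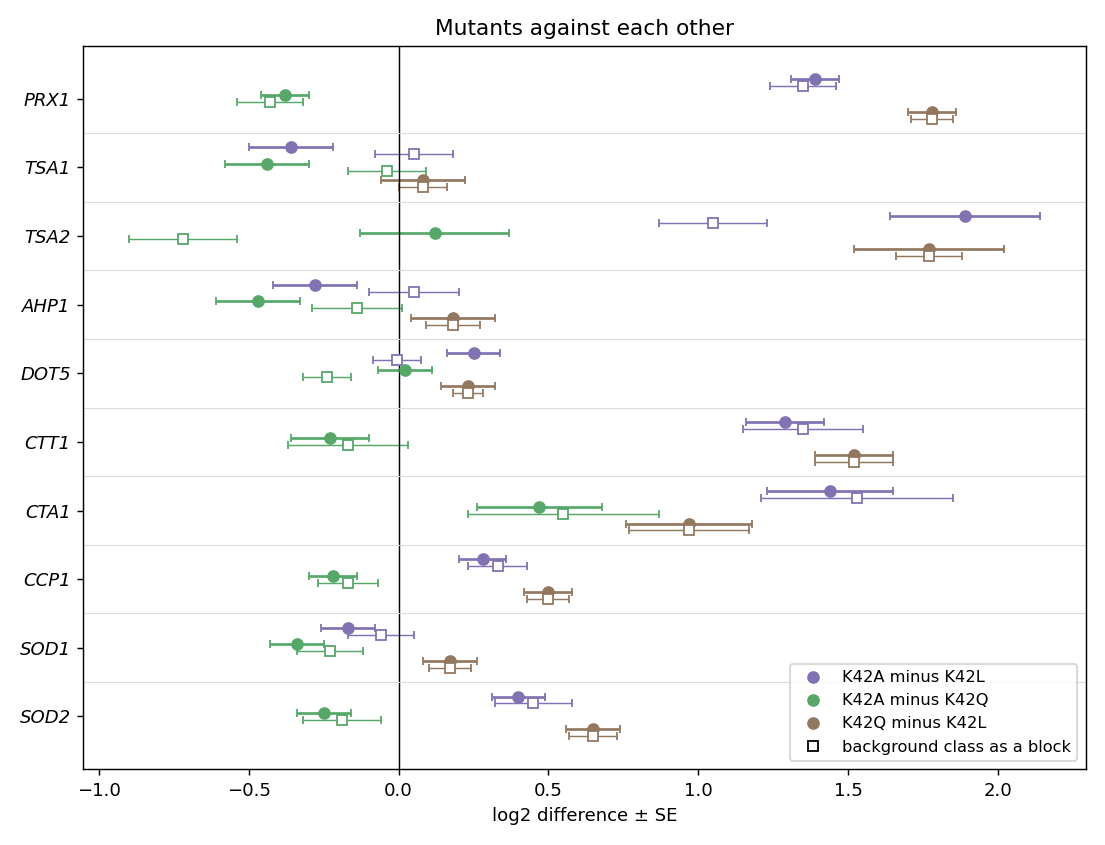
Log2 difference with its SE for each gene between the mutants: K42A minus K42L, K42A minus K42Q and K42Q minus K42L. Circles are the fit without a block and open squares the fit with the background class as a block. The K42Q minus K42L squares lie on their circles, and those of TSA1, AHP1, TSA2 and DOT5 move in the comparisons with K42A.

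The genes most like each tested member over the 9 arrays were found by the Pearson correlation of log2 signal, given as a description of arrays that fall into 4 genotypes and 2 background classes. PRX1 was closest to SPI1 (0.998), EGO4 (0.995) and YDL124W (0.993). TSA2 was closest to ISR1 (0.992), AST2 (0.988) and YDC1 (0.987), SOD2 to YNK1 (0.986), GSP2 (0.974) and STB4 (0.972), and CCP1 to RAD50 (0.985), PRP2 and YMR090W (both 0.978). TSA1 was closest to GND1 (0.988), a gene of NADPH supply, followed by PEP8 (0.978) and SML1 (0.97). For AHP1 the nearest were the Hsp70 and Hsp110 chaperone genes SSA2 (0.978), SSA1 (0.97) and SSE1 (0.964). DOT5 was nearest to DSE2 and IDH1 (both 0.972) and GFD2 (0.968), and SOD1 to HEL2 (0.961), NUP2 (0.96) and MRPS28 (0.953).

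Peroxiredoxins are restored by the thioredoxin system, of which 8 genes were listed. In the fit of all genes 5 of the 8 were called higher and 2 lower in K42A, and 5 higher and 1 lower in K42Q. As for the members, such counts stand against the 30.8% and 28.7% of all genes called higher and the 16.2% and 14.5% called lower in K42A and K42Q, and nothing is called particular to a list from them. TRR2 and TRX3, the mitochondrial thioredoxin reductase and thioredoxin, rose in both: TRR2 by 0.90 ± 0.08 and 0.97 ± 0.08, and TRX3 by 0.75 ± 0.11 and 0.36 ± 0.11. Of the cytosolic pair, TRX1 was called lower in both (-0.20 and -0.30), and both calls were lost with spike-in scaling (-0.02 and -0.12), after cyclic loess (0.04 and -0.17) and after quantile scaling (0.04 and -0.19), with the sign turned in K42A. TRX2 was called higher in K42Q (0.29). In K42A it was at 0.05 and was called higher after cyclic loess (0.26, adjusted p = 0.00232) and quantile scaling (0.24, adjusted p = 0.00255).

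The cytosolic reductase gene TRR1 was called lower in K42A (-0.26) and not in K42Q (-0.13), and the K42A call was lost under the same 3 scalings (-0.08, -0.07 and -0.11). The methionine sulphoxide reductase genes MXR1 and MXR2 were called higher in K42A, by 0.69 and 0.44, and were 0.24 and 0.26 in K42Q, not called. The wild-type arrays of MXR1 split by background class, at 282.4 against 439.5 and 437.9, and with the block K42Q was called 0.66 higher (adjusted p = 0.00055, against 1 wild-type array). MXR2 was called in K42Q with spike-in scaling (0.44). None of the 7 genes tested was called in K42L.

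SRX1, for the sulphiredoxin that repairs over-oxidised peroxiredoxins, lay under the signal limit and is named after its values were seen. It read 28.7, 18.6 and 17.5 in wild type, 60.9 and 86.6 in K42A, 19.9 and 17.7 in K42L, and 86.1 and 70.6 in K42Q. Its differences in the fit of all genes were 1.79 ± 0.23 in K42A and 1.89 ± 0.23 in K42Q, both called, and -0.17 in K42L. In K42A and K42Q they were 1.16 and 1.35 after cyclic loess, and 1.20 and 1.34 after quantile scaling. The wild-type arrays of SRX1 split by background class. With the block the differences were 2.01 in K42A and, against 1 wild-type array, -0.61 in K42L and 1.44 in K42Q. The K42A and K42Q arrays overlapped each other and stood above all others.

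Glutaredoxins pass electrons from glutathione to oxidised thiols, and 3 of their 8 listed genes were called higher in K42A and 3 in K42Q, with 0 lower. With the block 4 were called higher and 2 lower in K42A, against 27.2% and 27.6% of all genes tested. GRX8 (0.53 and 0.75) and GRX1 (0.45 and 0.60) were called in both and GRX6 in K42A (0.51). GRX2 was called in K42Q (0.32), which was lost with the block (0.20), and its K42A value of 0.18 was called with the block (0.24) and under 3 scalings (0.26 to 0.36).

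Of 11 listed genes of glutathione and glutathione peroxidases, 8 were called higher and 2 lower in K42A, and 6 higher and 1 lower in K42Q, in the fit of all genes. GTT2, a glutathione transferase gene, was called higher in K42A (1.94), K42Q (1.86) and K42L (1.53). It read 76.0, 43.8 and 48.8 in wild type and passed the signal limit only through the mutant arrays, as GPX2, with a wild-type mean just under the limit, did. ECM4 (0.74 and 1.09), GTT1 (0.50 and 0.91) and GPX2 (0.70 and 0.43) were called higher in both K42A and K42Q, the K42Q call of GPX2 being lost after cyclic loess (0.21) and quantile scaling (0.19).

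NADPH pays for the reduction of thioredoxin and glutathione. Of 15 listed genes of its supply, 6 were called higher and 3 lower in K42A, and 6 higher and 1 lower in K42Q, in the fit of all genes, and 1 of the 10 above the signal limit was called higher in each. That gene was GND2 (1.10 and 1.86). TKL1 and TAL1 (both -0.33) were called lower in K42A, and both calls were lost with spike-in scaling (both -0.15) and after cyclic loess (-0.05 and -0.10), that of TKL1 also after quantile scaling (-0.05). POS5 was called lower in both (-0.22 and -0.22), and in neither with spike-in scaling (-0.04 in each).

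Among 7 genes that supply or repair the metal centres of these enzymes, 1 was called higher and 3 lower in K42A, and 1 higher and 2 lower in K42Q. SMF2, a manganese transporter gene needed for Sod2 activity, was called lower in K42A (-0.38) and K42Q (-1.05). MTM1, also needed to give Sod2 its manganese, was called lower in both (-0.33 and -0.29), and ATX1, the copper chaperone gene, in K42A (-0.35). With spike-in scaling the calls of MTM1 in both mutants and of SMF2 and ATX1 in K42A were lost (-0.15, -0.11, -0.19 and -0.17). SMF1 was called higher in K42A (0.67), and its K42Q value of 0.26 was called with the block (0.53, against 1 wild-type array) and with spike-in scaling (0.43). The copper importer gene CTR1 was called 1.89 ± 0.39 higher in K42Q and 0.92 with the block. Its wild-type arrays split by background class, at 359.1 against 128.3 and 133.4.

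Of the 10 listed regulators, 5 were called higher and 1 lower in K42A, and 4 higher and 0 lower in K42Q, in the fit of all genes, and 5 were above the signal limit. YAP1, for the main peroxide-responsive activator, was called higher in K42A (0.48 ± 0.13). In K42Q it was at -0.01, and with the block, against 1 wild-type array, at 0.28 (adjusted p = 0.0162). CAD1, for its relative, was called lower in K42A (-0.56), and its K42Q value of -0.27 was called with the block (-0.48), after cyclic loess (-0.37) and after quantile scaling (-0.41). SKN7 (0.17 and -0.01), MSN2 (0.10 and -0.14) and HAP1 (-0.19 and 0.07) were called in neither, although SKN7 was in K42A with spike-in scaling (0.36) and MSN2 in K42Q after quantile scaling (-0.21).

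The Yap1 targets of efflux and reduction had 7 of 12 called higher and 1 lower in K42A, and 6 higher and 0 lower in K42Q, in the fit of all genes. FLR1 (1.30 and 0.74) and HBN1 (0.68 and 1.17) rose in both. GRE2 was called in K42Q (0.88), and its K42A value of 0.27 was called with the block (0.39) and under 3 scalings (0.40 to 0.45). OYE2 was called lower in K42A (-0.32), which was lost with spike-in scaling (-0.14), cyclic loess (-0.05) and quantile scaling (-0.05).

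Haem is the cofactor of both catalases and of Ccp1. Of 8 listed genes of its synthesis, 2 were called higher and 2 lower in K42A, and 1 higher and 2 lower in K42Q, in the fit of all genes. HEM4 (0.48) and HEM14 (0.32) were called higher in K42A, both lost after cyclic loess (0.29 and 0.23) and quantile scaling (0.25 and 0.15). HEM14 was also called in K42Q (0.36), not with the block (0.21) or after quantile scaling (0.25). HEM1 was called lower in both (-0.27 and -0.32) and HEM12 in K42Q (-0.43), and with spike-in scaling these 3 calls were lost (-0.09, -0.14 and -0.25), as was HEM1 in K42A after cyclic loess (-0.10).

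Peroxisomal fatty acid oxidation, the setting of CTA1, had 14 of 16 listed genes called higher in K42A and 11 in K42Q, with 0 lower, in the fit of all genes, and 10 of the 16 lay under the signal limit, the class of weak genes described above. PIP2 (1.16 and 0.75) was called in both. FOX2 (0.89 and 0.64) read 70.1, 74.5 and 72.5 in wild type and 74.4 and 71.6 in K42L, and passed the limit only through its K42A and K42Q arrays. CIT2 was called in K42A (1.29), and its K42Q value of 0.26 was called with the block (0.54), with spike-in scaling (0.44) and after cyclic loess (0.38). OAF1 was at 0.50 in K42A and 0.49 in K42Q, called in both, and in neither after quantile scaling (0.28 and 0.31), nor in K42Q with the block (0.28). Among the genes of these lists above the limit, GTT2 was the only one called in K42L.

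**Figure D4:**
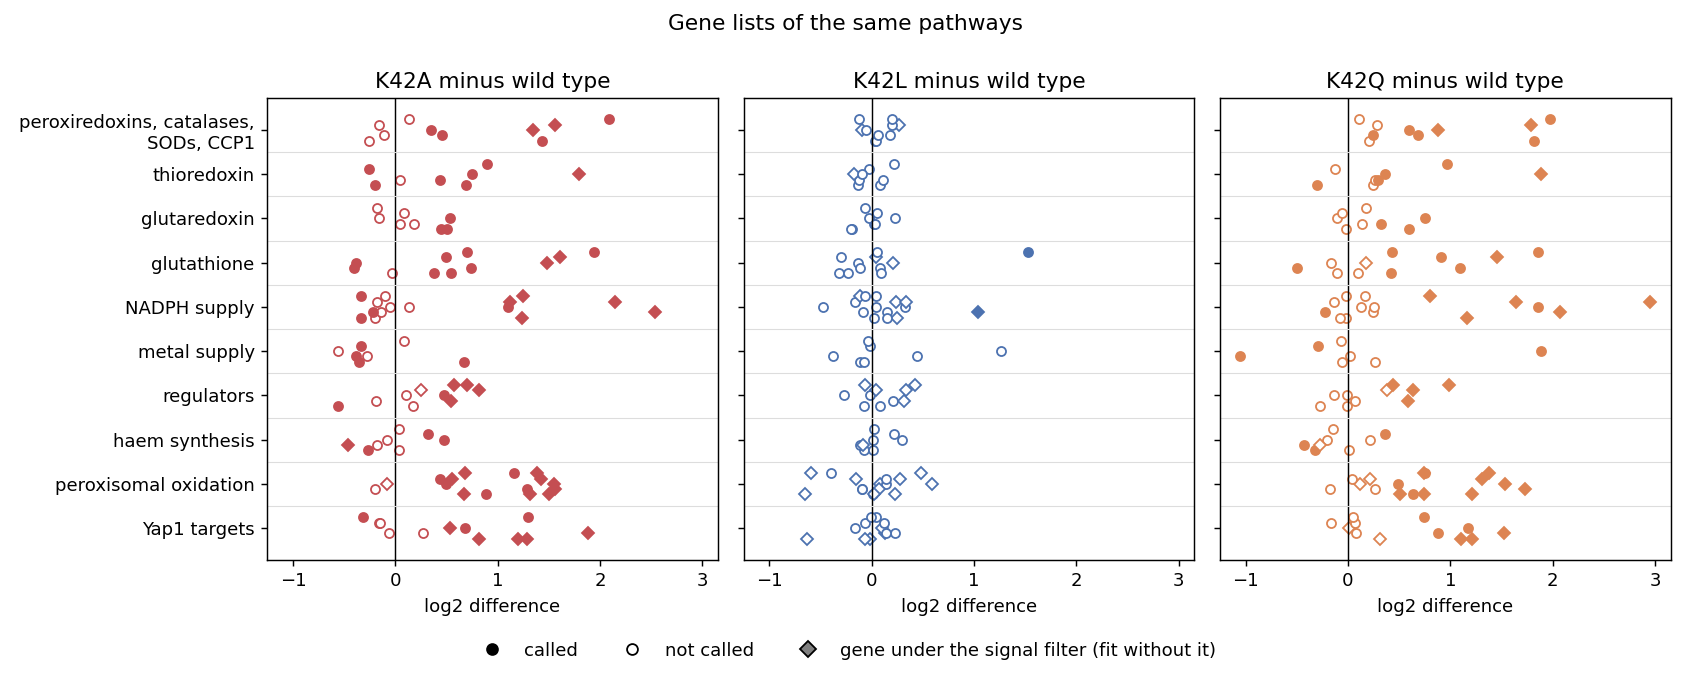
Log2 difference from wild type of every gene of the 10 members and of 9 lists of connected pathways, 1 panel per mutant. Filled marks are called genes, open marks are not, and diamonds are genes under the signal limit from the fit of all genes. In K42L the dots lie close to 0 apart from a few, among them GTT2 at 1.53.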

How the data were processed

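Total RNA of 9 yeast cultures was labelled with biotin after 1 round of T7 amplification and hybridised to 1 array each, per the labels' protocols. The deposited values are signal intensities on a linear scale, which the authors made with GCOS 1.4 and MAS5 per the submitters' processing notes. For the MAS5 version, its scaling target and the genome build, the sources used here give no entry, and the trimmed mean (2% off each end) of 150.1 on every array shows that the authors had scaled the intensities.

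Groups were taken from the sample titles. A single S. cerevisiae gene was listed for 5498 of the 10928 probe sets. Taking the brightest per gene gave 5449 genes. Intensities went into the model as log2, not scaled again, after 126 values at 0 were set to 0.1. A group-mean model over all 9 arrays was fitted with limma 3.58.1 in R 4.3.3, with moderated statistics and an intensity trend, and Benjamini-Hochberg adjustment over the 4087 genes above the 25th percentile of mean signal. The model was also run on simulated data with independent noise on each array. Those data held no background class, so they cannot show its effect. The 27 spike-in probe sets and 1747 probe sets of other listed genes, taken as another yeast species, gave the spike-in and background levels. The background class was set at the widest gap between the arrays' median backgrounds. Alternatives were 4 scalings, other filters, 16 added before the logarithm, other variance models, the compared groups alone, the mean over probe sets, blocks, 1 class alone, a 2-fold threshold and leaving out each array.

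The members and pathway lists were chosen with earlier results of these data known, and the lists were written from general knowledge. Named genes are the 10 members, for each list the up to 3 called genes with the largest difference in each mutant, all tested thioredoxin genes and regulators, and the 3 genes most correlated with each tested member. The labels do not say whether replicate numbers pair arrays. The deviations of same-numbered arrays from their group means correlated at -0.3 to 0.18. In a group of 2 arrays the deviations mirror each other, so this check cannot settle the pairing. The number of arrays, 2 or 3 a group, limits the precision of every value. No sequences are shown. Figures were drawn with matplotlib 3.10.9 in Python 3.11.15.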

Additional observations from a re-analysis of the deposited data

How the results depend on the processing

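Over the alternatives run for the single members, 1199 of 1330 values kept their side of the threshold, 75 lost a call and 51 gained one. The 1199 include changes of sign with no call in either fit, as for AHP1 in K42A under quantile scaling. Another 5 changed sign with a call in either fit, of which the cause was not tested. The 5 were TSA1 in K42A against wild type under quantile scaling (0.15), SOD1 there under quantile scaling (0.15) and cyclic loess (0.15), and, with the background class as a block, DOT5 in K42A against K42L (-0.0058) and TSA2 in K42A against K42Q (-0.72). PRX1, TSA2 and CTT1 kept their calls in K42A and K42Q against wild type and K42L under every scaling, block and left-out array tried. TSA2 passed the signal limit only through its K42A and K42Q arrays. Its kept calls, and the counts and medians below that include it, are therefore a description alone.

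With a 2-fold threshold, 2 of the 8 members above the signal limit were called in K42A and 2 in K42Q against wild type. Against K42L the count was also 2 in K42A and 2 in K42Q, and in K42A against K42Q it was 0. CTT1 and CTA1 lay under the limit and are not in these counts. In the fit of all genes CTT1 was called at 2.95-fold in K42A and 3.46-fold in K42Q against wild type. CTA1 was called at 2.55-fold and 1.84-fold. Against K42L the folds were 2.45 and 2.87 for CTT1, and 2.71 and 1.96 for CTA1. The share of all genes called with this threshold was not computed. Cyclic loess gave 8 of 8 in K42Q against wild type and 8 against K42L, spike-in scaling within the background class 8 against wild type, and quantile scaling 8 against K42L. Of all genes, cyclic loess called 19.6% higher and 17.9% lower in K42Q against wild type, and 16.1% and 14.1% against K42L. Spike-in scaling called 33.4% higher and 5.31% lower against wild type, and quantile scaling 14.1% and 19.1% against K42L. In K42L against wild type 1 member, TSA2, was called with the class as a block and 1 within 1 class. Leaving out each array gave 3 to 4 called in K42A, 0 to 3 in K42L and 4 to 7 in K42Q against wild type, 2 to 7 in K42A against K42L, 0 to 6 in K42A against K42Q and 4 to 5 in K42Q against K42L. The highest count of each range was reached without wild-type replicate 1. That setting called 27.2% of all genes higher and 27.6% lower in K42A and 29.0% and 27.8% in K42Q against wild type. Against K42L the shares were 29.6% and 30.7% in K42A and 24.7% and 24.8% in K42Q. K42A against K42Q had 21.4% higher and 20.7% lower, and K42L against wild type 16.9% and 16.5%. In K42A against K42Q the count of 0 came without K42A replicate 2, K42Q replicate 1 or K42Q replicate 2, and without K42A replicate 1 it was 1. In K42A against K42L the count of 2 came without K42L replicate 1.

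The replicate number as a block left 1 called in place of 3 in K42A against K42Q, and SOD1 in K42Q against wild type at 0.20 (adjusted p = 0.166), DOT5 in K42A against K42L at an adjusted p of 0.0691, and AHP1 and SOD1 in K42A against K42Q at 0.0674 and 0.0587. It changed no other member's call, and whether the numbers pair the arrays was not settled.

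The median difference of all genes against wild type was -0.18 in K42A and -0.12 in K42Q under median centring. It was 0.17 and 0.18 under spike-in scaling, and -0.0043 and 0.0072 after cyclic loess. The members' median difference in K42A against wild type was 0.07 after median centring, 0.32 after cyclic loess, 0.42 with spike-in scaling, 0.40 with no filter and 0.13 with a filter at the 50th percentile. In K42Q against wild type the same settings gave 0.33, 0.56, 0.62, 0.64 and 0.28, and in K42Q against K42L 0.26, 0.47, 0.49, 0.57 and 0.23. In K42A against K42L it was 0.11 after median centring, 0.40 with spike-in scaling, 0.34 with no filter and 0.19 with the class as a block. In K42A against K42Q it was -0.20 after quantile scaling, -0.24 with no filter and -0.21 with the class as a block. Without 1 array it lay between 0.18 and 0.29 in K42A, 0.03 and 0.11 in K42L and 0.39 and 0.52 in K42Q against wild type, between 0.26 and 0.27 in K42A and 0.34 and 0.43 in K42Q against K42L, and between -0.36 and -0.24 in K42A against K42Q. Fits within 1 class could not be had for K42A against K42L or K42Q.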
